A study of Mus musculus with 2 samples.

Results

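The genes described are 10 that encode the main glycoprotein receptors of the platelet surface and proteins stored in its alpha granules: Pf4, Ppbp, Itga2b, Itgb3, Gp9, Gp1ba, Gp1bb, Gp5, Gp6 and Vwf. They were chosen by symbol, and all 10 were found among the 43346 Ensembl genes of the tables. The samples are described as whole spleens of 2 newborn mice (postnatal day 0, strain B6NCrl) from 1 pregnancy, though they share a donor identifier. The labels name no treatment and no genetic change. Each spleen gave 1 total RNA library. Pup 2 gave replicate 1, and pup 1 gave replicate 2. The 2 libraries form a single group, so there is no contrast between conditions. The depth was 33122187 estimated counts for replicate 1 and 32162543 for replicate 2. Levels are the deposited TPM (transcript abundance normalised for transcript length and library total, with the same sum in each library), given for each library and as mean ± SD (n = 2). Coordinates are on mm10.

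Platelets are shed by megakaryocytes, and the spleen of the newborn mouse is a blood-forming organ that holds megakaryocytes as well as circulating platelets. Platelets stick to damaged vessel wall when the GPIb-IX-V receptor binds von Willebrand factor, and they become activated on collagen through glycoprotein VI. They then bind each other through the integrin αIIbβ3, the fibrinogen receptor, and release chemokines and adhesive proteins from alpha granules. Megakaryocytes transcribe these genes as they mature and pass the RNA on to platelets. In whole tissue, fewer cells of a type and less RNA per cell cannot be told apart.

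The tissue label was checked against regulators of spleen development. All 8 matched regulators reached 1 TPM in both libraries, where 55.6% of protein-coding genes did. The regulators ran from Barx1 at 4.54 and 6.54 TPM to Tcf21 at 114 and 135. Among them were Tlx1 at 15.5 and 24.1 TPM and Nkx2-5 at 15.0 and 20.5 TPM in replicates 1 and 2. RNA of neighbouring organs was also measured. The 9 pancreas genes summed to 1035 TPM in replicate 1 and 342 in replicate 2, and the 10 liver genes to 46.1 and 22.7 TPM. The biological coefficient of variation between the libraries was 0.128 over 15506 genes (edgeR common dispersion).

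All 10 platelet genes were expressed in both spleens, over a wide range. Each reached 1 TPM in both libraries, a level that 55.6% of the 21474 protein-coding genes and 31.0% of all genes reached. Together they held 0.0556% of TPM in replicate 1 and 0.0582% in replicate 2 (0.0569% ± 0.00184, n = 2). The level fell 278-fold from Pf4, the highest, to Gp6, the lowest. By mean TPM the order was Pf4, Ppbp, Gp1bb, Gp9, Itga2b, Vwf, Gp5, Itgb3, Gp1ba, Gp6. For 6 of the 9 neighbouring pairs in this order, both libraries of the higher gene exceeded both libraries of the lower one. The other 3 pairs, Gp1bb with Gp9, Gp9 with Itga2b and Gp5 with Itgb3, overlapped between libraries. Compared within each library, Gp1bb exceeded Gp9 and Gp5 exceeded Itgb3 in both. Gp9 was below Itga2b in replicate 1 and above it in replicate 2. A comparison of 2 values against 2 cannot give an exact permutation p below 0.333 (two-sided), so no test of these differences was made. The 2 chemokine genes, Pf4 and Ppbp, made up 81.2% of the summed TPM of the 10 genes in replicate 1 and 80.0% in replicate 2. By estimated counts, which are not normalised for length, their part was 58.7% and 55.9%.

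**Figure D1:**
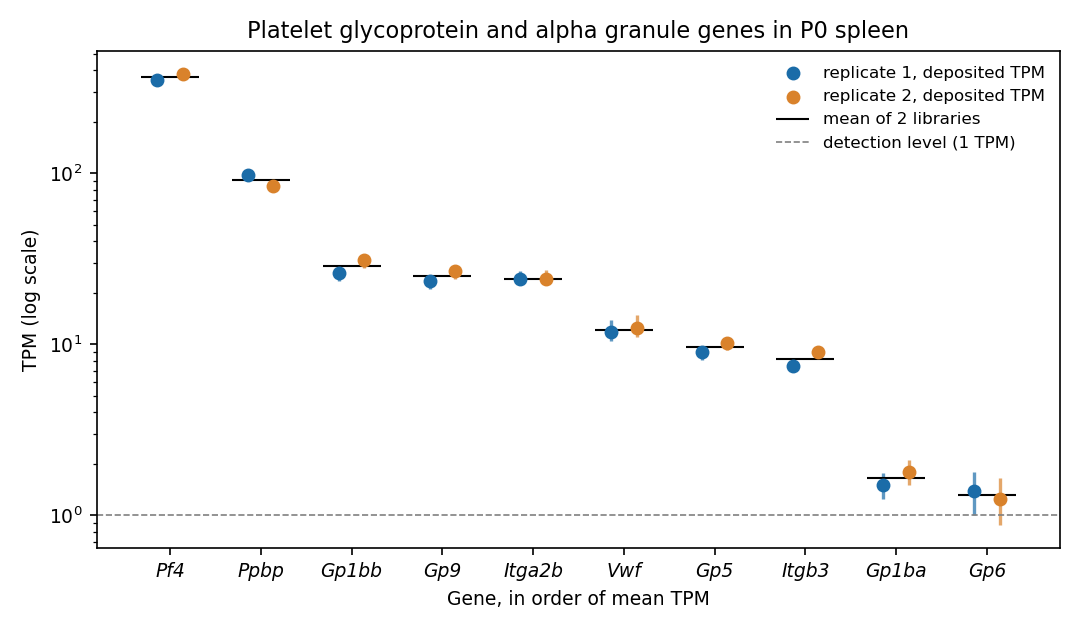
TPM on a log axis of the 10 platelet genes in each library (points), with the authors' credibility interval of posterior TPM (vertical lines), the mean of both libraries (black bars) and the detection level of 1 TPM (dashed). Pf4 lies at 353 and 381 TPM, 6 genes lie between 7.49 and 31.0 TPM, and Gp1ba and Gp6 lie between 1.25 and 1.80 TPM.

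The alpha granule chemokines stood above the receptor genes among the 10, Pf4 by much more than Ppbp. By mean TPM, Ppbp was 3.20 times Gp1bb, the next gene. Pf4 encodes platelet factor 4 (Cxcl4), which binds heparin and is stored in alpha granules. It lies on chromosome 5 (90772435 to 90773383, plus strand) and was at 353 TPM in replicate 1 and at 381 in replicate 2, from 5421 and 5518 counts. It ranked 254th of the protein-coding genes by mean TPM. Ppbp encodes pro-platelet basic protein, the precursor from which the neutrophil attractant Cxcl7 is cut. It lies just upstream on the same strand (chromosome 5, 90768518 to 90770063), with 2371 nt between the genes, and stood at 98.0 and 84.4 TPM, from 3031 and 2462 counts. Pf4 was the higher of the pair in both libraries, by 3.60 times in replicate 1 and 4.51 times in replicate 2 (4.06 ± 0.645). Both genes have 3 exons, and the tables hold 1 transcript for each, so no division among isoforms enters these values.

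The other genes of this chemokine cluster were near or below the detection level. Cxcl5, upstream on the same strand, stood at 1.14 and 1.21 TPM, from 56 counts in each library. Cxcl1, a neutrophil attractant induced in inflammation, stood at 0.30 and 0.43 TPM. The counts of Cxcl2 were 2 and 1, and those of Cxcl3 were 0 and 2. Cxcl15 had 0 counts in both, which allows up to 0.0906 CPM in replicate 1 and 0.0933 in replicate 2 (3 counts, counting error only). Both platelet chemokines exceeded the other 5 measured genes of the cluster in both libraries.

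The 4 subunits of the GPIb-IX-V receptor were at unequal RNA levels. Gp1bb and Gp9, the small subunits that stabilise the complex at the cell surface, were the highest. Gp1bb (chromosome 16, 18620317 to 18622403, minus strand) was at 26.0 TPM in replicate 1 and at 31.0 in replicate 2. Gp9 (chromosome 6, 87778072 to 87779768, plus strand) stood at 23.4 and 26.7 TPM. The ranges of these subunits overlapped, with Gp1bb at 1.14 ± 0.0357 times Gp9. Gp5 (chromosome 16, 30307685 to 30310779, minus strand), the subunit that is cut by thrombin and loosely attached, stood at 8.96 and 10.2 TPM. Gp9 was 2.61 times Gp5 in both libraries, but had fewer counts, at 524 and 565 against 592 and 638. Gp1ba (chromosome 11, 70639122 to 70642036, plus strand), the subunit that carries the binding site for von Willebrand factor, was the lowest, at 1.51 and 1.80 TPM from 124 and 139 counts.

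Gp1ba RNA stood well below that of its partners in both spleens. Gp9 was 15.5 times Gp1ba in replicate 1 and 14.8 times in replicate 2, and Gp1bb was 17.2 times Gp1ba in both, though 10.5 and 9.77 times with the length of the longest transcript. Gp5 was 5.93 and 5.68 times Gp1ba. By estimated counts, Gp9 was 4.23 and 4.06 times Gp1ba, and Gp1bb 7.06 and 6.55 times. Of the 10 genes, these 4 are the ones whose coding sequence lies in 1 unbroken piece in the longest annotated coding transcript. They lie on 3 chromosomes, with Gp1bb and Gp5 both on chromosome 16.

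Gp1bb is the least secure value of the 4. Its locus overlaps Sept5, a septin gene on the same strand (18620502 to 18629954), and reads can be shared. The authors' posterior SD of the Gp1bb count was 3.94 on 876 counts in replicate 1 and 5.32 on 910 in replicate 2, while it was 0 for the other 9 genes. Sept5 itself stood at 2.91 and 4.26 TPM. The transcript models also differ between annotations. The 2 Gp1bb transcripts are 645 and 1847 nt long in the tables, and 2085 and 1086 nt long in GENCODE M21. The one tabulated at 645 nt held 56.4% and 63.3% of the gene's TPM from 28.7% and 35.1% of its counts. With the length of the longer tabulated transcript in place of the mixture, Gp1bb stood at 15.9 and 17.5 TPM, below Gp9 in both libraries, so the order of Gp1bb and Gp9 depends on the length used.

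Promoter sequences are shown for the 4 receptor subunits, whose RNA levels differ although their proteins form 1 complex, and for Pf4, the highest of the 10 genes. GATA and ETS factors are known regulators of megakaryocyte genes. Each sequence is the 250 bases before the start of the gene, 5′ to 3′ on the gene's strand, from RefSeq on GRCm38.p6 (mm10). Capitals mark the motifs searched on both strands. The GATA motif was taken as AGATAA or TGATAA, and also as AGATAG or TGATAG. The ETS motif was taken as AGGAAG or CGGAAG. A motif on the other strand is printed as its reverse complement, and no GATA match overlaps an ETS match here.
Pf4, chr5:90772185-90772434, plus strand: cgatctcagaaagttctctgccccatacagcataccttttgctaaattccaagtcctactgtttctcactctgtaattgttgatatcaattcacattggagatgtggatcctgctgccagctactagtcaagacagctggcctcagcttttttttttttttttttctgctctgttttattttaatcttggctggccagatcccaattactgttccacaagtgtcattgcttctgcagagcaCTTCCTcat
Gp1ba, chr11:70638872-70639121, plus strand: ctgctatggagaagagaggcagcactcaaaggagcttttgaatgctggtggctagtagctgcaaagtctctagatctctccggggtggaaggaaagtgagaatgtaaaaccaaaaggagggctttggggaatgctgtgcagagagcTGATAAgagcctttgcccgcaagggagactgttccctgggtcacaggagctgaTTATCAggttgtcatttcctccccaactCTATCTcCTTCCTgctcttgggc
Gp1bb, chr16:18622404-18622653, minus strand: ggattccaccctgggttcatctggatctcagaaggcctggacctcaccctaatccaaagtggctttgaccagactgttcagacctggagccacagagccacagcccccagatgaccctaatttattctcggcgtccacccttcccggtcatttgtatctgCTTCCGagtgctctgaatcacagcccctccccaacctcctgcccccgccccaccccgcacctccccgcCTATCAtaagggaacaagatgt
Gp9, chr6:87777820-87778069, plus strand: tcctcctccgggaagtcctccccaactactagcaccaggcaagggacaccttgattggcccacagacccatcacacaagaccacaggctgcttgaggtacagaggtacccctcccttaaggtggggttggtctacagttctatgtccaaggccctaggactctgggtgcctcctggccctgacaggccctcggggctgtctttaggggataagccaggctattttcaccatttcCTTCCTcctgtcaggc
Gp5, chr16:30310782-30311031, minus strand: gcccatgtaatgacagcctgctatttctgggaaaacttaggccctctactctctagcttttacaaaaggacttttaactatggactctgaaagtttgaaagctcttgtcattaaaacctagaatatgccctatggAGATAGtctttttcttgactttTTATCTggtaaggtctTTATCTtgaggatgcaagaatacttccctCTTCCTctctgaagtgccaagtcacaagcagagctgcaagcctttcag

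All 5 sequences hold an ETS motif, and the GATA motif is in those of Gp1ba, Gp1bb and Gp5. The first base of the ETS motif is 9 bases before the start in Pf4, 16 in Gp9 and in Gp1ba, 48 in Gp5 and 90 in Gp1bb. Gp1ba holds 3 GATA motifs, at 104, 51 and 23 bases before the start. Gp5 also holds 3, at 115, 93 and 77 bases, and Gp1bb has 1 at 22 bases. The Gp1bb sequence lies within the bounds of Sept5. RefSeq promoters were matched for 8 of the 10 genes, all but Itgb3 and Vwf. Of these 8, 4 hold the GATA motif and 6 the ETS motif, where 26.5% and 39.2% of 32851 mouse promoters do. With GGGAAG and with TGGAAG counted as ETS motifs too, 7 of the 8 and 63.9% of all promoters hold one. The letters TATAAA on the gene's strand are in 1 of the 8, that of Ppbp, and in 7.59% of all. A match of letters is a description and does not show that a factor binds there.

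The fibrinogen receptor genes differed less from each other than Gp1ba did from its partners. Itga2b encodes the αIIb chain (CD41), a marker of the megakaryocyte lineage that early blood progenitors also carry. It lies on chromosome 11 (102453297 to 102470122, minus strand) and was at 24.15 TPM in replicate 1 and at 24.06 in replicate 2, from 1542 and 1566 counts. Itgb3 encodes the β3 chain (CD61), which also pairs with αV in other cells. It lies on chromosome 11 as well (104608000 to 104670476, plus strand) and stood at 7.49 and 8.96 TPM, from 1342 and 1515 counts. Itga2b exceeded Itgb3 in both libraries, by 3.22 and 2.69 times (2.95 ± 0.381). Itgav, the αV chain, stood at 28.7 and 41.2 TPM, 3.83 and 4.60 times Itgb3, but by counts it was 0.755 and 0.875 times Itgb3.

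Much of that excess of Itga2b lies in short transcripts. Of the 10 Itga2b transcripts in the tables only the longest, with 30 exons and 3437 nt, is annotated as protein-coding. This transcript held 50.5% of the gene's TPM in replicate 1 and 57.7% in replicate 2, but 83.1% and 88.0% of its counts. The noncoding fragment Itga2b-207, 623 nt from the 3′ end of the gene, held 27.2% and 20.7% of TPM from 7.04% and 4.96% of counts. For Itgb3 all counts were given to the coding transcript with 15 exons and 5784 nt. With coding transcripts alone, Itga2b stood at 12.2 and 13.9 TPM and was 1.63 and 1.55 times Itgb3.

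Gp6, the collagen receptor, was the lowest of the 10 genes. It lies on chromosome 7 (4363965 to 4397744, minus strand) and was at 1.39 TPM in replicate 1 and at 1.25 in replicate 2, from 46 and 39 counts. The authors' credibility interval in replicate 1 was 1.00 to 1.79 TPM, at a level that the sources used here do not state. It overlapped that of Gp1ba, 1.25 to 1.77, and the intervals in replicate 2 overlapped too, so the order of the lowest pair is uncertain. The tables hold 1 Gp6 transcript of 1152 nt, whereas GENCODE M21 has a coding transcript of 5900 nt, and reads from its additional length would not be counted. Fcer1g, the signalling chain with which glycoprotein VI must pair and which many myeloid cells share, stood at 227 and 343 TPM, 163 and 275 times Gp6.

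Vwf RNA was at a level between those of the receptor subunits, and this level depends strongly on the transcript models. Vwf encodes von Willebrand factor, the large adhesive protein made by megakaryocytes and by endothelium. It lies on chromosome 6 (125546774 to 125686679, plus strand) and was at 11.8 TPM in replicate 1 and at 12.4 in replicate 2, from 898 and 934 counts. The tables divide it among 12 transcripts. Vwf-209, a noncoding 456 nt fragment at the 3′ end of the gene, held 34.9% and 48.4% of TPM from 5.18% and 6.83% of counts. The 2 full-length transcripts, of 8834 and 8817 nt, together held 55.1% and 66.4% of counts but 15.2% and 19.2% of TPM.

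The split between the full-length Vwf transcripts was not determined by the reads. Vwf-203 took 53.9% of counts in replicate 1 and 26.1% in replicate 2, and the authors' posterior SD of its count was 106 and 130 on 484 and 244. The other, 8817 nt long, is not in GENCODE M21. With all Vwf counts set over the length of Vwf-203, the level was 3.26 and 3.60 TPM. Vwf would then rank eighth of the 10 genes in place of sixth, below Gp5 and Itgb3.

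**Figure D2:**
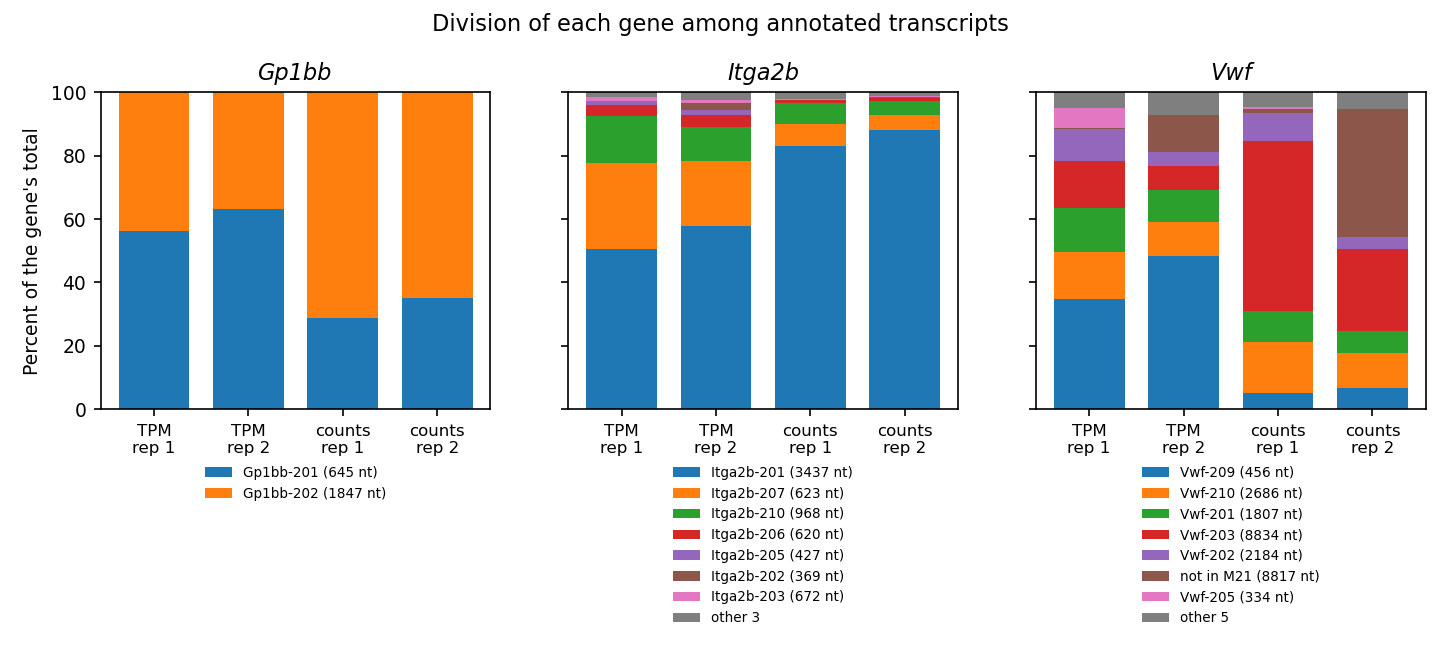
Percent of each gene's total held by its annotated transcripts, by TPM and by estimated counts in each library, for Gp1bb, Itga2b and Vwf (lengths in nt as tabulated; the 7 transcripts with the highest share of TPM are named). Short transcripts take larger shares of TPM than of counts: Vwf-209 falls from 34.9% and 48.4% of TPM to 5.18% and 6.83% of counts, and Itga2b-207 from 27.2% and 20.7% to 7.04% and 4.96%.

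Endothelial RNA was present in both libraries. All 14 endothelial markers reached 1 TPM in both libraries, where 55.6% of protein-coding genes did. The markers summed to 424 TPM in replicate 1 and 533 in replicate 2. The highest were Egfl7 at 102 and 125 TPM, Plvap at 70.0 and 83.1, Stab2 at 70.1 and 82.5, Cldn5 at 46.4 and 64.8, and Esam at 30.5 and 42.2. The ratio of replicate 1 to replicate 2 in scaled counts was below 1 for 13 of the 14, all but Tie1. Their median log2 ratio was -0.26. Of all tested genes, 7888 were below 1 and 7613 above. The shift was not particular to endothelium, since all 8 spleen regulators were below 1 too, with a median log2 ratio of -0.33. For Vwf the log2 ratio was 0.00. The part of endothelium in the Vwf level was not tested. Of 7 matched genes that process, store or clear von Willebrand factor, Stab2 was followed by Lrp1, a clearance receptor, at 26.0 and 39.5 TPM. Furin, the protease that cuts the propeptide, stood at 6.35 and 7.59 TPM, and Selp, the P-selectin of the same storage granules, at 1.11 and 1.30. Adamts13, the protease that shortens von Willebrand factor, had 8 counts in each library (0.08 TPM). Asgr1 and Asgr2, subunits of a hepatocyte receptor, had at most 3 counts.

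Between the 2 libraries, the ratios of the 10 genes ran from 0.922 to 1.28 after TMM scaling of the counts. None was 1.5-fold apart, where 7.66% of 15506 genes were, those whose counts averaged 20 or more. A count of 0 of 10 is near that background and is no result about these genes. Their median log2 ratio, replicate 1 over replicate 2, was 0.00, and that of all tested genes -0.01. The median size of the log2 ratio was 0.05 for the 10 genes and 0.18 for all tested genes. These sets were not matched for count, and counting error is larger at low counts, so this is no result about the 10 genes. The ratios of 6 genes were above 1 and of 4 below. Under library size alone, 2 were above and 8 below, and that scaling moved the median log2 ratio of all genes to -0.11. There is 1 library per pup, so these differences have no replicate check.

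Ppbp differed most. Its ratio was 1.28 (exact 95% Clopper-Pearson interval 1.21 to 1.35, counting error only), higher in replicate 1, and it was between 1.16 and 1.33 under the other scalings tried. Its neighbour Pf4 had a ratio of 1.02 (0.985 to 1.06), and its direction turned with the scaling, to 0.954 with library size alone and 0.927 in deposited TPM. Ppbp exceeded Pf4 in this ratio. A scaling moves both genes alike, so finding the same order under each scaling is no support for it. Whether the difference between the chemokine genes exceeds the usual spread between libraries was not tested. Itgb3 had a ratio of 0.922 (0.856 to 0.993), and with spike-in totals the ratio was 0.955 and its interval, 0.886 to 1.03, included 1. For the other 8 genes the interval under TMM included 1. Among these, Gp1bb, Vwf and Itga2b had ratios of 1.00, 1.00 and 1.03. Gp9 and Gp5 both had a ratio of 0.966, and Gp1ba one of 0.929. The interval of Gp6 was wide, 0.784 to 1.93 around 1.23, from 46 and 39 counts. It included a level 1.5-fold higher in replicate 1.

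**Figure D3:**
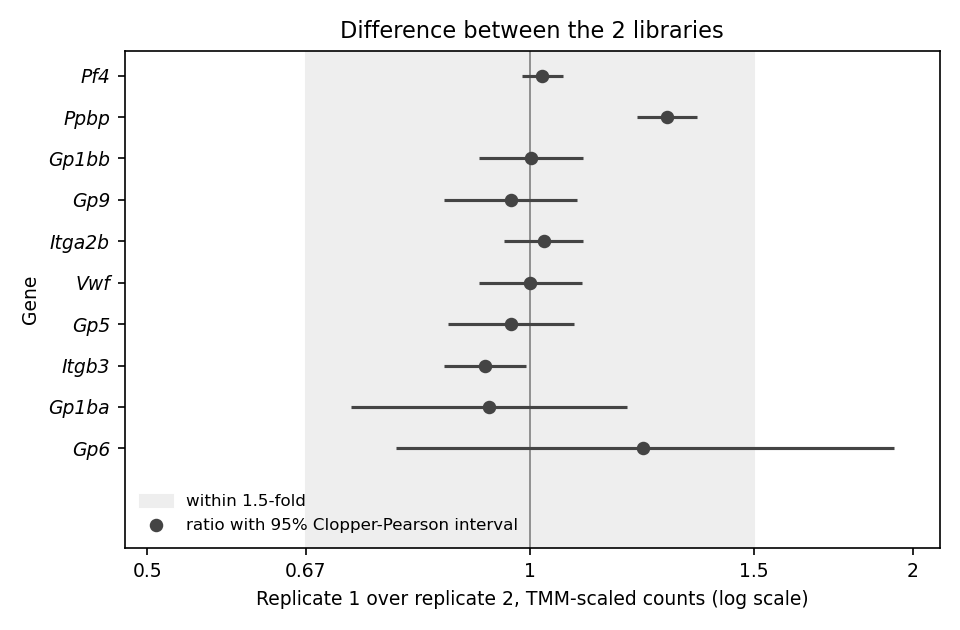
Ratio of replicate 1 to replicate 2 in TMM-scaled counts for the 10 platelet genes (log axis), with exact 95% Clopper-Pearson intervals that cover counting error only; the grey band is within 1.5-fold. All 10 ratios lie within the band, from 0.922 for Itgb3 to 1.28 for Ppbp.

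Other alpha granule proteins were mostly measured at 1 TPM or more, though many are not particular to platelets. Of 23 cargo genes, 19 reached 1 TPM in both libraries, where 55.6% of protein-coding genes did. Sparc, a collagen-binding protein that stromal cells also make, stood at 908 and 1106 TPM, and Srgn, the granule proteoglycan of many blood cells, at 216 and 262. Tgfbi stood at 65.2 and 87.3 TPM, Clu at 33.0 and 38.4 and Fn1, fibronectin, at 28.4 and 38.3. Thrombospondin (Thbs1), also released from alpha granules, stood at 26.8 and 29.3 TPM. Mmrn1, multimerin, stood at 2.63 and 3.19 TPM, and F5, coagulation factor V, at 1.72 and 1.95.

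Among the cargo genes, the fibrinogen chains were those at least 1.5-fold apart. Of the 22 tested, 3 were at least 1.5-fold higher in replicate 1 and 0 in replicate 2, where 2.78% and 4.88% of all tested genes were. The count of Fgg was 91 in replicate 1 and 22 in replicate 2, a 4.31-fold difference (2.68 to 7.21). Fgb had 118 and 56 counts, 2.19-fold (1.58 to 3.07), and Fga 80 and 50 counts, 1.67-fold (1.16 to 2.42). Fibrinogen is made by hepatocytes and taken up by platelets from plasma. All 9 tested genes of the liver list, which holds these 3, were at least 1.5-fold higher in replicate 1, for example Alb with 422 and 200 counts. The part of liver RNA in the fibrinogen values was not tested. Smaller differences with intervals that left out 1 ran the other way, such as Igf1 with a ratio of 0.761 (0.690 to 0.838), F13a1 with 0.780 (0.725 to 0.839) and Serpine2 with 0.800 (0.742 to 0.863). The median log2 ratio of the cargo list was -0.10, against 0.00 for the 10 platelet genes.

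All 8 genes of alpha granule formation and release reached 1 TPM in both libraries, where 55.6% of protein-coding genes did. The release SNARE Vamp8 was at 299.6 TPM in replicate 1 and at 279 in replicate 2, and Gfi1b, a transcription factor of red cells and megakaryocytes, at 131 and 120. Vps16 stood at 46.2 and 49.7 TPM, Snap23 at 21.9 and 24.97, and Vipas39 at 8.52 and 11.4. Rab27b had a mean of 8.47 ± 2.07 TPM (SD, n = 2). Nbeal2, whose loss empties alpha granules in grey platelet syndrome, stood at 4.33 and 5.42 TPM, and Vps33b at 3.60 and 4.43. None was 1.5-fold apart, where 7.66% of all tested genes were, so that count is no result about these genes. Several of these genes act in many cell types.

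All 17 partner and companion receptor genes reached 1 TPM in both libraries as well, where 55.6% of protein-coding genes did. The highest after Fcer1g were Itgb1, Flna, Fermt3 and Cd36. Flna, the filamin that ties GPIb to the actin skeleton, stood at 93.5 and 117 TPM. Fermt3 (kindlin-3), which activates the integrin αIIbβ3, stood at 99.8 and 100.9 TPM. Among platelet receptors of narrower expression, Clec1b (CLEC-2) stood at 12.4 and 12.9 TPM and Treml1 at 6.82 and 7.58. P2ry12, the ADP receptor, stood at 2.32 and 2.88 TPM. Itga2, the α chain of the collagen-binding integrin, stood at 1.06 and 1.54 TPM. Of the 17, none was 1.5-fold apart, where 7.66% of all tested genes were, so that count is no result about these genes. After TMM scaling 15 had a ratio below 1, and the median log2 ratio was -0.16. With spike-in totals 12 were below 1. Of all tested genes, 7888 were below 1 and 7613 above after TMM scaling, and 6776 and 8725 with spike-in totals.

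**Figure D4:**
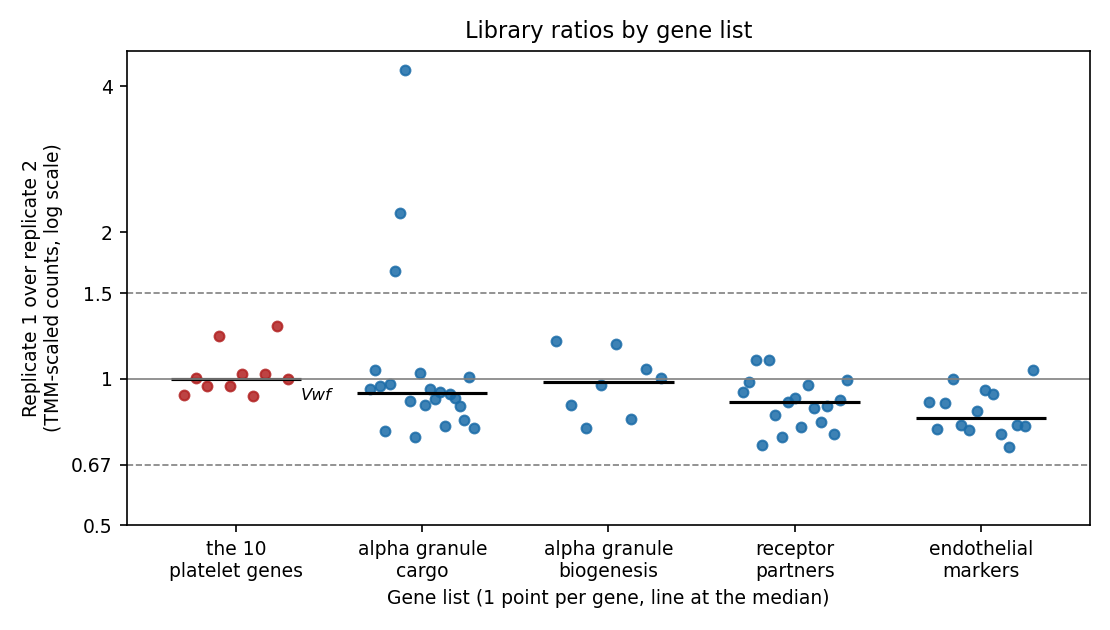
Ratio of replicate 1 to replicate 2 in TMM-scaled counts (log axis) for genes of 5 lists, 1 point per gene whose counts averaged 20 or more, black lines at the list medians and dashed lines at 1.5-fold. The 10 platelet genes centre on 1, the endothelial markers lie lower with a median log2 ratio of -0.26, and the 3 points above 1.5 are the fibrinogen chains.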

How the data were processed

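Total RNA of 2 whole spleens was sequenced, 1 library per pup. The descriptions name separate pups but the donor identifier is shared, so the spread between libraries may be partly technical. Per the labels' protocols, RNA longer than 200 nt was used, with spike-in RNA added. For each library the authors deposited gene and transcript tables on mm10 with GENCODE M4 models, per the labels and the submitters' own file list. The layout is that of RSEM. No source used here states the aligner, versions or strand setting. Expected counts, as deposited, divide reads that match several features, so they are estimates. The deposited TPM is relative to all features. The authors also deposited posterior TPM with intervals, FPKM and the percent of each gene's TPM held by a transcript. FPKM was not used, and percentages were recomputed from TPM and counts.

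Symbols, coordinates, transcript types and exons came from GENCODE M21 (42462 of 43346 genes matched by Ensembl identifier without version). Transcript lengths are those of the tables. A gene was called detected at 1 TPM in both libraries. Ratios used rounded expected counts with TMM scaling (edgeR 4.0.16, R 4.3.3) over all Ensembl genes, and genes entered if their counts averaged 20 or more. A gene was called apart at 1.5-fold. Exact 95% Clopper-Pearson intervals and the limits for genes with 0 counts cover counting error only, because there is 1 library per pup. Reads with no molecular identifier may be copies of 1 molecule, so these intervals and limits may understate even that error. The steps were tested on simulated counts. DESeq2 1.42.0 gave an alternative scaling, and Python 3.11.15 with scipy 1.17.1 was used for the rest.

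The 10 genes and the lists were chosen with earlier results of these data known. The naming rule takes all 10 genes, the 5 highest of each other list, all genes of lists of up to 8, genes 1.5-fold apart and genes at 0 counts. Sept5, Thbs1, Mmrn1, F5, Igf1, F13a1, Serpine2, Itgav, Clec1b, Treml1, P2ry12, Itga2, Tie1 and the transcripts were named beyond that rule, after their values were seen. Clec4m and Bapx1 had no match by symbol, and protein sequences were not analysed here. Pattern likeness across samples was not computed, since 2 libraries of 1 group give no profile.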

Additional observations from a re-analysis of the deposited data

How the results depend on the processing

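Of the 267 alternative values computed, 212 were labelled the same, 51 moved and 4 reversed. The same meant within the SD of the main mean, within 1.5-fold for numbers of genes, or within the counting interval for library ratios. A mean left with 1 library always falls within that SD, and rescaling TPM cancels in ratios between genes. The number 212 is therefore not a measure of robustness. Leaving out a library gives the other library's value, so each pair of values in the report is that range; the share of TPM was 0.0556% to 0.0582%. The share held by the 10 genes was 0.0649% with TPM rescaled to protein-coding genes and 0.0439% by estimated counts. At 10 TPM, 6 of the 10 genes passed. Without length normalisation, by counts, the ratios became 1.09 for Itga2b over Itgb3, 1.64 for Gp1bb over Gp9, 4.15 for Gp9 over Gp1ba, 6.80 for Gp1bb over Gp1ba (17.0 by posterior mean TPM), 4.68 for Gp5 over Gp1ba, 2.01 for Pf4 over Ppbp and 120 for Fcer1g over Gp6, while Gp9 over Gp5 reversed to 0.885 and Itgav over Itgb3 to 0.815. Itga2b over Itgb3 was 1.59 with coding transcripts. The length of the longest transcript, an alternative chosen after seeing the data, gave 1.86 for that ratio and 10.1 for Gp1bb over Gp1ba, and reversed Gp1bb over Gp9 to 0.668 and Itgav over Itgb3 to 0.666. By counts the shares of the coding Itga2b transcript, the 645 nt Gp1bb transcript and Vwf-209 were 85.6%, 31.9% and 6.00%. Genes 1.5-fold apart numbered 1188, 1824 by deposited TPM and 7703 without a filter, and 314 were 2-fold apart. None of the 10 genes was called apart under any of these settings. Intervals under other scalings, also added after seeing the data, left out 1 for Ppbp under all 4 count scalings and for Itgb3 under all but spike-in totals; for Pf4 they did so with library size alone and spike-in totals, in opposite directions. With library size alone, 2 spleen regulators were apart in place of 0. At 5 TPM, 1 liver gene passed in place of 5. No paired contrast between conditions was possible because there is 1 group. Ratios between genes were taken within each library. Depth limits Gp6 and Gp1ba most.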
